A study of Mus musculus with 34 samples.

Results

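GABA-A receptor subunits were followed at the RNA level in the mouse brain after loss of the histone deacetylase Hdac1, in the 5XFAD model of amyloid pathology, and in mice with both. The set holds 7 genes, taken by symbol (Gabra2, Gabra3, Gabra4, Gabra5, Gabrb1, Gabrb2 and Gabrd), of the 23951 genes listed in each file. A further 12 listed genes encode other subunits of the same family. Expression was measured as FPKM (fragment counts scaled to transcript length and to library depth), 1 library per mouse. Hippocampal RNA came from 4 control mice (Hdac1f/f), 5 Hdac1 cKO mice (Hdac1f/f, Nestin-Cre), 6 5XFAD mice (Hdac1f/f, 5XFAD) and 5 compound mice (Hdac1f/f, Nestin-Cre, 5XFAD). Nuclei that stained for GFAP, an astrocyte filament protein, were sorted from the cortex of 3 control (Hdac1f/f) and 4 Hdac1 cKO (Hdac1f/f, Nestin-Cre) mice. The mice were males of 13 months, or 13 to 14 months for the hippocampi of control and Hdac1 cKO mice. Floxed Hdac1 alleles were thus present in every group, controls included, and no group carried Nestin-Cre without them. Nestin-Cre acts in neural progenitors, so that neurons and astrocytes lose Hdac1 while microglia keep it, and 5XFAD mice carry mutant human transgenes driven by the Thy1 promoter, mainly in neurons.

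GABA-A receptors are chloride channels of the brain, built as rings of subunits around a pore that GABA opens. Alpha and beta subunits form the GABA binding sites, and a gamma or delta subunit completes most receptors. Receptors with a gamma subunit largely sit at synapses and carry fast inhibition, whereas those with the delta subunit, often paired with Gabra4 in the forebrain, lie outside synapses and carry a steady tonic current. In the hippocampus the delta subunit is best known from dentate granule neurons and some interneurons, and Gabra5 from the tonic current of pyramidal neurons.

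In the mm9 gene annotation, 3 of the 7 members lie in a cluster on chromosome 5: Gabra2 at chr5:71352296-71487088 and Gabra4 at chr5:71960973-72049547, both on the minus strand, and Gabrb1 at chr5:72091171-72529628 on the plus strand. In that annotation Gabra4 and Gabrb1 are 41.6 kb apart and read away from each other, and Gabra2 lies 474 kb from Gabra4. The remaining members lie elsewhere: Gabrd at chr4:154759089-154772221 (minus strand), Gabra5 at chr7:64663060-64765379 (minus strand), Gabrb2 at chr11:42233259-42446092 (plus strand) and Gabra3 at chrX:69678020-69902187 (minus strand). The values below are per gene, so the start that was used is not known. The cluster is shown by sequence because Gabrb1 stood far above Gabra2 and Gabra4 in GFAP+ nuclei. The 250 bases before the start are from RefSeq on GRCm38.p6, read 5′ to 3′ on the strand of the gene, with capitals for the GC box core, GGGCGG or CCGCCC on the other strand. Gabra2 (chr5:71095850-71096099, minus strand), Gabra4 (chr5:71658309-71658558, minus strand) and the Gabrb1 start farther from Gabra4 (chr5:71699682-71699931, plus strand) read:
Gabra2: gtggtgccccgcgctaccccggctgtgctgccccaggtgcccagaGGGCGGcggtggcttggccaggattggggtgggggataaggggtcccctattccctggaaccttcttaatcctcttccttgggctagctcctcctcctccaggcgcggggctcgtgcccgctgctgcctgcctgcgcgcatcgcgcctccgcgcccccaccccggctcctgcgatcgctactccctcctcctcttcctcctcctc
Gabra4: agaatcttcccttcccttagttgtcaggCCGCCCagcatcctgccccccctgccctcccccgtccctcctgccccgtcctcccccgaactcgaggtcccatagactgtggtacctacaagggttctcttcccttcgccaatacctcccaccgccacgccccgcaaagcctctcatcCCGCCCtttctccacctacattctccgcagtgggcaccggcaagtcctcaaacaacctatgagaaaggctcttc
Gabrb1: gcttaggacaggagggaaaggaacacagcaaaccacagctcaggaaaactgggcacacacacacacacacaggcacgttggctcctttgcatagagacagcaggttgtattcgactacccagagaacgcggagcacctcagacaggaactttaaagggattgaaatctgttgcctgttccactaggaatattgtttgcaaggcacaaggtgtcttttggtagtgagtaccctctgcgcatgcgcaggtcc
These windows held 1, 2 and 0 matches to the core, with a GC content of 70%, 61.2% and 50.8%. The other Gabrb1 start (chr5:71657671-71657920, plus strand) had 64.4% and also 0 matches, and with that start Gabrb1 and Gabra4 overlap. The table had 10 starts for 6 members, Gabrd being the member without an entry. A match was found before 3 of the 10 starts (1 each of Gabra2, Gabra4 and Gabrb2), against 32.7% of all 32851 starts, whose median GC content was 52.4%. A match is a description of the sequence and not evidence of binding.

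The labels were first checked. Hippocampal Hdac1 averaged 7.93 ± 2.2 FPKM in the 4 control mice, with SD as the error, and 2.74 ± 0.279 FPKM in the 5 with Hdac1 cKO (adjusted p = 0.0236 in limma). The 6 mice with 5XFAD averaged 8.23 ± 1.56 FPKM and the 5 compound mice 1.92 ± 0.516 FPKM. In GFAP+ nuclei the 3 controls averaged 15.5 ± 6.25 FPKM and the 4 cKO samples 8.95 ± 2.4 FPKM of Hdac1 (adjusted p = 0.984 in limma), and the range of one group reached into the other. Thy1, whose promoter drives the 5XFAD transgenes, was higher by 2.54 and 2.60 on the log2 scale in 5XFAD and compound than in control mice (adjusted p = 7.61e-09 for 5XFAD in limma). The depth of the libraries relative to control 1 ran from 1 to 2.19 in control, 1.5 to 2.35 in Hdac1 cKO, 1.08 to 2.22 in 5XFAD and 0.754 to 2.24 in compound mice. Markers of the choroid plexus, a tissue beside the hippocampus, differed greatly between mice: Ttr ranged from 576 to 20146 FPKM in control, 56.5 to 1608 in Hdac1 cKO, 53.8 to 7892 in 5XFAD and 58.9 to 13910 in compound mice. Thalamus markers were highest in control 4 and 5XFAD 6. Neuron markers had medians of summed FPKM of 1877, 1892, 1684 and 1855 in control, Hdac1 cKO, 5XFAD and compound mice. In whole tissue, fewer cells of a type and less RNA per cell cannot be told apart.

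In the hippocampus all 7 members were detected in each of the 20 mice. Gabrb1, a beta subunit, had the highest mean at 57.1 ± 6.48 FPKM (SD, n = 20), followed by Gabra5 at 50.5 ± 9.08, Gabra2 at 47.3 ± 11.4 and Gabrb2 at 37.3 ± 3.53 FPKM. Between neighbours among these 4 the gap in means was below the larger of the pair's SDs, and Gabrb1 exceeded Gabra5 in only 13 of 20 mice. Gabra4 (17.5 ± 2.33 FPKM) lay below Gabrb2 in 20 of 20 mice, and Gabrd (12.9 ± 3.15 FPKM) lay below Gabra4 in 18. Gabra3 was the lowest at 4.37 ± 0.867 FPKM, below Gabrd in 20 of 20 mice. The hippocampal libraries sample the 3′ ends of transcripts while FPKM divides by transcript length, so this order between genes may place long transcripts too low. The length of a gene is the same in every mouse and cancels in a ratio of FPKM. The fold changes below are of FPKM + 1, where the added 1 shrinks those of low values more.

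**Figure D1:**
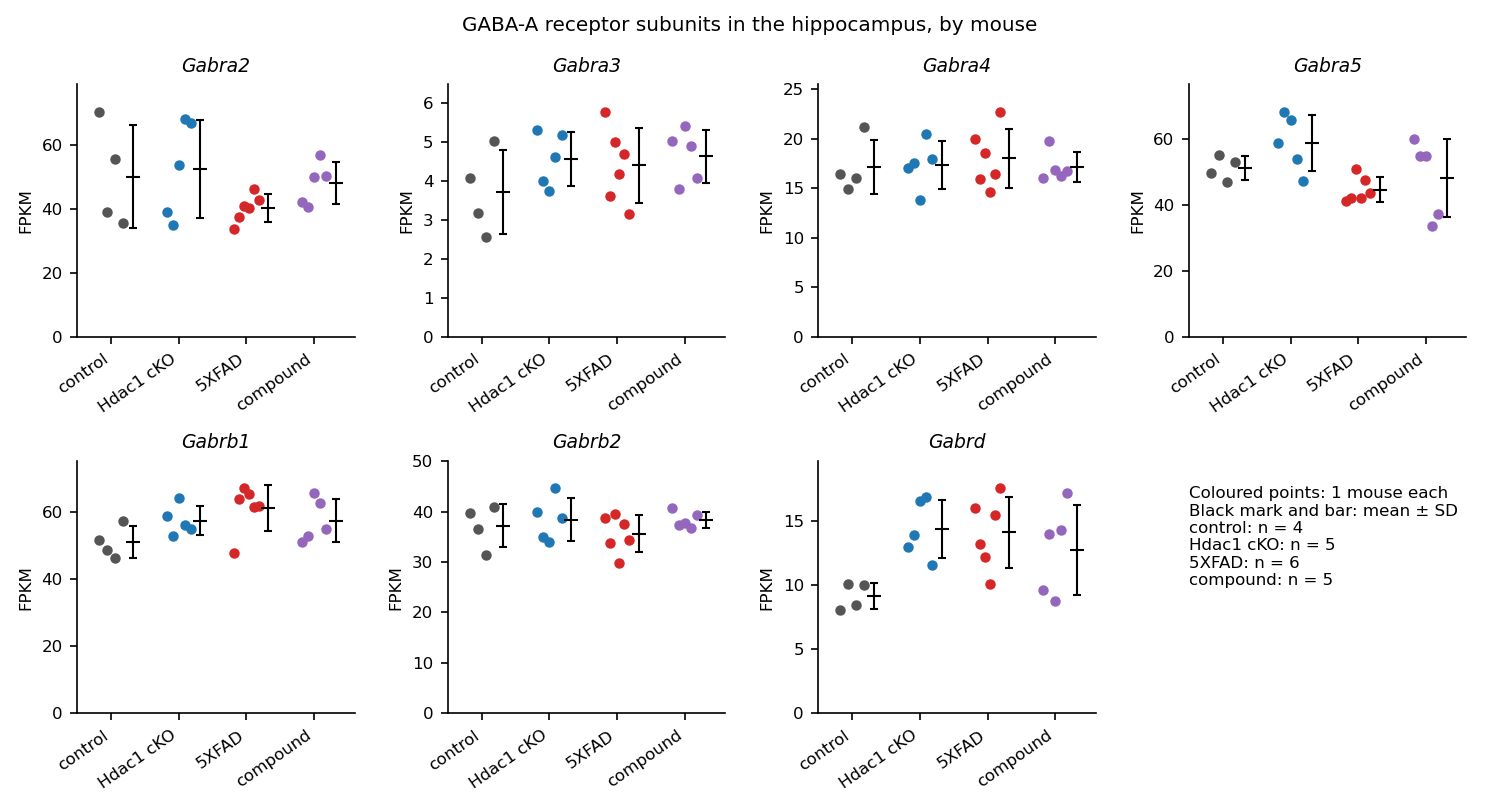
FPKM of each subunit (y axis, from 0) in each hippocampal mouse, by group (x axis), with the mean ± SD as a black mark and bar. For Gabrd the 4 control mice, at 8.05 to 10.1 FPKM, lie below all Hdac1 cKO and 5XFAD mice, whereas the groups overlap for the other 6 subunits.

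The first comparison asked what Hdac1 loss did in otherwise unaltered mice. Gabrd, the delta subunit, was the only member called, at 1.51-fold higher in Hdac1 cKO than in control hippocampus. A gene was called where its fold change was at least 1.5 with an unadjusted p under 0.05 in limma, the thresholds of the study. Gabrd was at 8.05, 10.1, 8.49 and 9.98 FPKM in the control mice and at 13, 13.9, 16.6, 16.9 and 11.6 FPKM in the Hdac1 cKO mice. Every Hdac1 cKO mouse was thus above every control mouse. The difference on the log2(FPKM + 1) scale was 0.59 (SE 0.13, 95% confidence interval 0.31 to 0.87), with an unadjusted p of 0.000618, a Benjamini-Hochberg adjusted p of 0.113 over all genes tested by limma, and a two-sided exact permutation p of 0.0159. Of the 14265 genes tested, 3.36% were called, 0.154% had an adjusted p under 0.05 and 4.23% had groups that did not overlap, against 1, 0 and 1 of the 7 members. An unadjusted p under 0.05 was found for 1 member and for 11.7% of all genes. Calls over all genes were mostly lower in Hdac1 cKO mice, 409 against 71 higher. The median difference of the 7 members was 0.17 and that of all genes -0.001.

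The fold of Gabrd lay close to the limit of 1.5. Without control 1 or 3, or without Hdac1 cKO 3 or 4, it fell under the limit, and the log2 difference over single mice left out ranged from 0.54 to 0.66. It was 0.63 without control 4 and 5XFAD 6, the mice with the most thalamus RNA. Libraries of Hdac1 cKO mice were deeper on the whole, and with depth as a covariate the difference was 0.53 (adjusted p = 0.273 in limma), below the limit. All 7 choroid plexus markers were called lower in Hdac1 cKO mice, with a median difference of -3.08. Of these, Aqp1 (0.0958 against 2.57 FPKM) and Kcne2 (0.21 against 17.9 FPKM) passed the filter of 0.5 FPKM only through the control mice. With the score of the 7 markers as a covariate Gabrd differed by 0.60 (adjusted p = 0.542 in limma). Scores of control (2.36 to 5.93) and Hdac1 cKO mice (1.27 to 2.90) met only through control 1 and Hdac1 cKO 5. Genotype and this tissue can thus hardly be told apart by the fit. None of the 6 dentate granule neuron, 6 neuron and 6 astrocyte markers was called in this comparison. Neuron markers had 3 positive and 3 negative differences (median 0.02), with Rbfox3 at 164 to 178 FPKM in Hdac1 cKO and 139 to 156 FPKM in control mice. Astrocyte markers also had 3 of each sign (median 0.04), with Aqp4 at 27.1 to 32.2 against 20.9 to 24 FPKM. Of the 5 CA3 pyramidal neuron markers 1, Coch, was called lower, at -0.84 on the log2 scale, and 4 had positive differences. The 5 CA1 pyramidal neuron markers tested all had positive differences (median 0.36) and none was called, and the summed FPKM of the CA1 list was 96.8 to 123 in Hdac1 cKO against 77.9 to 95.8 in control mice, with no overlap. The part of these neurons in the level of Gabrd was not tested.

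The other members did not pass. Gabra5, with SD over 4 and 5 mice, averaged 51.3 ± 3.63 FPKM under control conditions and 58.9 ± 8.59 FPKM after Hdac1 loss (log2 difference 0.19, 95% interval -0.06 to 0.43). Gabrb1 was at 50.8 ± 4.76 and 57.3 ± 4.37 FPKM, a log2 difference of 0.17 (95% interval -0.03 to 0.37). Gabra3, best known from thalamic reticular and monoamine neurons, was at 3.72 ± 1.09 and 4.58 ± 0.696 FPKM, with an interval of -0.11 to 0.63. Gabra2 was the most variable member, from 35.5 to 70.6 FPKM in control and from 34.9 to 68.2 FPKM in Hdac1 cKO mice, which left a wide interval of -0.51 to 0.64. Gabra4, the usual partner of the delta subunit, was at 17.1 ± 2.76 and 17.4 ± 2.41 FPKM (interval -0.27 to 0.30), and Gabrb2 at 37.2 ± 4.28 and 38.4 ± 4.29 FPKM (interval -0.19 to 0.28).

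5XFAD mice were next compared with the same controls. Gabrd was at 16, 13.3, 12.2, 10.1, 15.5 and 17.6 FPKM in the 6 mice, all above the 4 control mice, although 5XFAD 4 exceeded control 2 by very little. The log2 difference was 0.56 (SE 0.15, 95% interval 0.24 to 0.87, unadjusted p = 0.00206 and adjusted p = 0.146 in limma, exact permutation p = 0.0143). At 1.47-fold it stayed under the fold limit, so none of the 7 members was called, while 2.95% of the 14402 genes tested were. Groups that did not overlap were found for Gabrd among the members and for 2.9% of all genes, and 0.708% of all genes but no member had an adjusted p under 0.05. Before adjustment, Gabrd and Gabrb1 had a p under 0.05, that is 2 of 7 members, as did 10.7% of all genes. The call changed with small steps: with a pseudocount of 0.1 in place of 1 the difference was 0.60, and with the choroid plexus score as a covariate it was 0.63, both past the fold limit. It also passed without control 2 (0.60), control 4 (0.60), 5XFAD 3 (0.59) or 5XFAD 4 (0.64). With depth as a covariate it was 0.46 (adjusted p = 0.269 in limma).

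Gabrb1 was at 47.6, 63.7, 67, 65.3, 61.2 and 61.8 FPKM in 5XFAD mice, against 51.5, 48.7, 46.1 and 57.2 FPKM in control mice. All but 5XFAD 1 were above every control mouse. The log2 difference of 0.26 (95% interval 0.02 to 0.49) had an unadjusted p of 0.0331 in limma, an adjusted p of 0.417 and an exact permutation p of 0.0524. Gabra5 pointed the other way, with 41.2, 42.1, 51, 42.3, 47.5 and 43.8 FPKM in 5XFAD mice against 49.9, 55.2, 47 and 53.1 FPKM in control mice. Its difference was -0.20 (95% interval -0.40 to 0.00, unadjusted p = 0.0509 and adjusted p = 0.467 in limma, exact permutation p = 0.0381). Of the 6 microglia markers, 5 were called higher in 5XFAD mice, and summed astrocyte markers ran from 875 to 1021 FPKM against 791 to 883 FPKM in control mice. Of the 6 astrocyte markers 1 was called higher, with 4 positive and 2 negative differences (median 0.13), and Gfap averaged 97.5 against 25.1 FPKM. Neuron markers, none of which was called, had a mean score of 7.82 in 5XFAD and 7.93 in control mice. Interneuron markers, also without a call, had a mean score of 4.95 against 5.17, with 5 negative and 2 positive differences. Their median sum was 675 against 872 FPKM, in which Sst alone averaged 460 against 663 FPKM. Over the 20 mice Gabra5 had a Pearson r of 0.64 with the neuron score, and 0.47 after group means were removed, as a description of libraries that share groups. The part of these cell types in the values of Gabrb1 and Gabra5 was not tested. Gabra2, Gabra3, Gabra4 and Gabrb2 differed by -0.26, 0.21, 0.07 and -0.06, each with an interval across 0.

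Compound mice, which combine Hdac1 loss with 5XFAD, shared the control mice with both comparisons above. Gabrd spread most here, at 9.6, 14, 8.74, 14.3 and 17.2 FPKM. Compound 1 and 3 lay within the range of the control mice and the other 3 above it. The log2 difference from control was 0.41 (SE 0.18, 95% interval 0.00 to 0.81, unadjusted p = 0.0484 and adjusted p = 0.473 in limma, exact permutation p = 0.111). Compound 1 and 3 also had the shallowest libraries of the 20, at 0.953 and 0.754 of control 1. With depth as a covariate the difference was 0.47 (adjusted p = 0.238 in limma). Called lower than in control mice were 1 of 6 dentate granule neuron, 4 of 7 choroid plexus and 1 of 5 endothelium markers. The endothelium marker Pecam1, at 0.421 against 1.4 FPKM in control mice, passed the filter of 0.5 FPKM only through the control mice. Called higher were 5 of 6 microglia and 2 of 6 astrocyte markers. Compound 4 and 5, the highest compound mice in Gabrd, had dentate scores of 2.62 and 2.58, the lowest of the 20. By summed FPKM their dentate markers stood at 61 and 48.8, against 50.8 to 67.1 in control mice. Of the lists named here only the choroid plexus markers entered a covariate fit, and the part of the other cell types in this difference was not tested. None of the 7 members was called, had an adjusted p under 0.05 or had groups without overlap, against 4.24%, 0.662% and 4.27% of the 14348 genes tested. Gabrd alone had an unadjusted p under 0.05, as did 10.5% of all genes.

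Against 5XFAD mice, compound mice differed only in the presence of Nestin-Cre. Gabrd differed by -0.15 (95% interval -0.53 to 0.22) and took the opposite sign, 0.05, with depth as a covariate. Gabra2, a subunit of synaptic receptors, was at 42.3, 40.8, 50.2, 56.9 and 50.5 FPKM in compound mice and at 33.9, 37.5, 41, 40.2, 46.4 and 43 FPKM in 5XFAD mice. The upper 3 compound mice were above all 5XFAD mice, and the log2 difference was 0.25 (95% interval 0.02 to 0.48, unadjusted p = 0.0382 and adjusted p = 0.734 in limma, exact permutation p = 0.0476). In the comparison of Hdac1 cKO with control mice Gabra2 differed by 0.07. Again 0 of the 7 members were called in limma, 1 of them (Gabra2) having an unadjusted p under 0.05, and over all 14326 genes tested 1.28% were called, 6.61% had an unadjusted p under 0.05, 0.00698% had an adjusted p under 0.05 and 0.607% had no overlap.

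Compound and Hdac1 cKO mice, which differ in 5XFAD, gave no call among the members and no unadjusted p under 0.05 in limma. Over the 14195 genes tested the shares were 3.55% called, 10.3% at an unadjusted p under 0.05, 1.49% at an adjusted p under 0.05 and 3.34% without overlap. Gabra5 had the largest difference, from 58.9 ± 8.59 to 48.2 ± 11.9 FPKM (SD, n = 5 each). On the log2 scale Gabra5 differed by -0.31 (95% interval -0.66 to 0.04), and by -0.40 to -0.19 with single mice left out. Among compound mice it stood at 60.2, 55.1, 55, 33.5 and 37.3 FPKM, the lower 2 being compound 4 and 5. These were the deepest libraries of the group, and with depth as a covariate the difference became -0.63 (adjusted p = 0.0153 in limma), the lowest adjusted p of any member in any setting. The same 2 mice had the lowest dentate granule marker scores of the 20 hippocampi, 2.62 and 2.58. By summed FPKM that list stood at 61 and 48.8 in them, and the lowest mouse was 5XFAD 2 at 46. Compound 4 had the highest summed microglia (1818 FPKM) and oligodendrocyte (1890 FPKM) markers. In this comparison 5 of 6 microglia and 2 of 6 astrocyte markers were called higher in compound mice. The part of these cell types in Gabra5 was not tested. Over all 20 mice Gabra5 had a Pearson r of -0.31 with log2 depth, 0.38 with the dentate score and -0.54 with the microglia score, or -0.61, 0.49 and -0.40 after the group means were removed, a description of libraries that share their group.

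**Figure D2:**
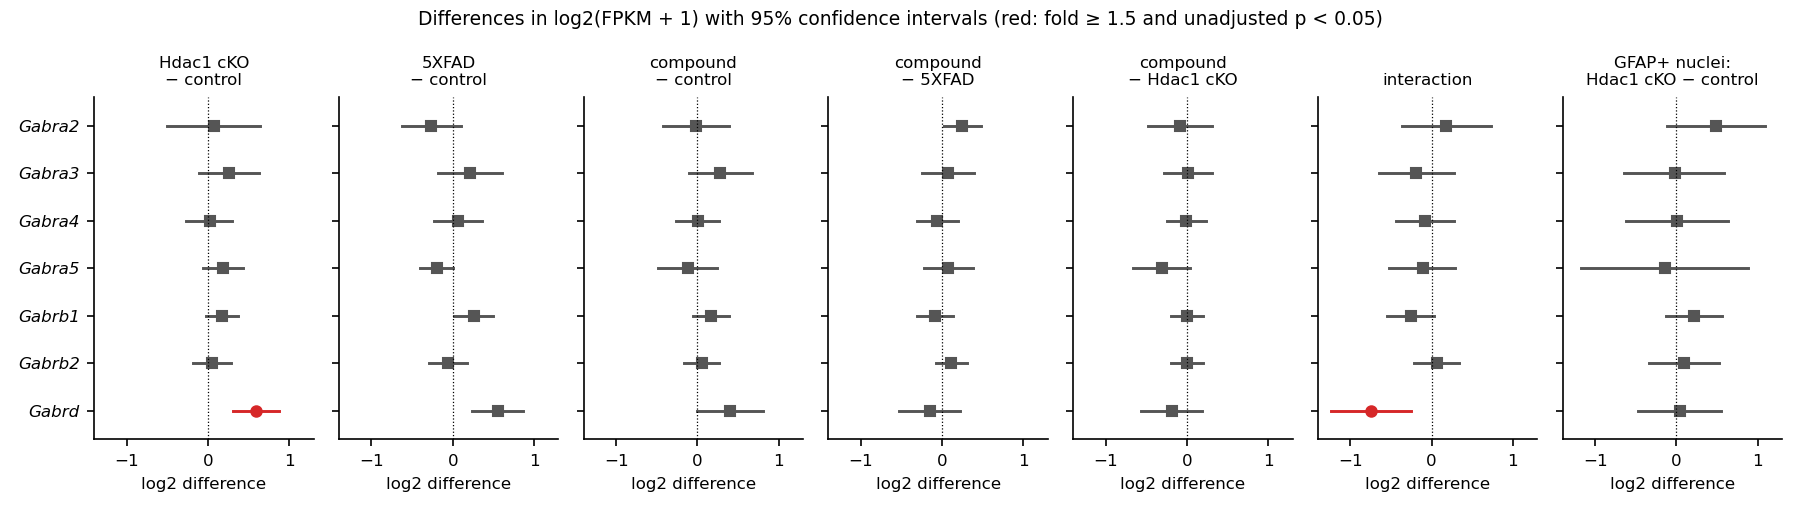
Differences of the 7 subunits in log2(FPKM + 1) (x axis) with 95% confidence intervals from limma, for 6 hippocampal contrasts and the GFAP+ nuclei. Red circles mark a fold of at least 1.5 with an unadjusted p under 0.05, which holds for Gabrd in Hdac1 cKO against control mice (0.59) and in the interaction (-0.75).

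A fit over all 20 hippocampal mice asked whether the effect of Hdac1 loss was the same with and without 5XFAD. For Gabrd the effect was 0.59 without 5XFAD and -0.15 with it, and their difference was -0.75 (SE 0.24, 95% interval -1.24 to -0.26, unadjusted p = 0.00459 and adjusted p = 0.376 in limma). In FPKM the means were 9.16 ± 1.04 (control), 14.4 ± 2.28 (Hdac1 cKO), 14.1 ± 2.75 (5XFAD) and 12.8 ± 3.53 (compound), so each alteration alone went with a higher mean and both together did not go beyond either. Gabrd was the only member called, and 4.07% of the 14389 genes tested were called for this term, 8.97% with an unadjusted p under 0.05 and 0% with an adjusted one. The interaction ranged from -0.86 to -0.63 with single mice left out, and Gabrd was called each time. It lost the call with depth as a covariate, at -0.44 (SE 0.22, adjusted p = 0.836 in limma). Over the 20 mice the Pearson r of Gabrd with log2 depth was 0.60, and 0.62 after group means were removed, a description with no test. Its r with the neuron score was -0.44, and -0.58 after group means were removed, and its r with the choroid plexus score was -0.39 and -0.09. The part of depth and of choroid plexus tissue in Gabrd was not tested beyond the covariate fits given, and that of neurons was not tested.

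**Figure D3:**
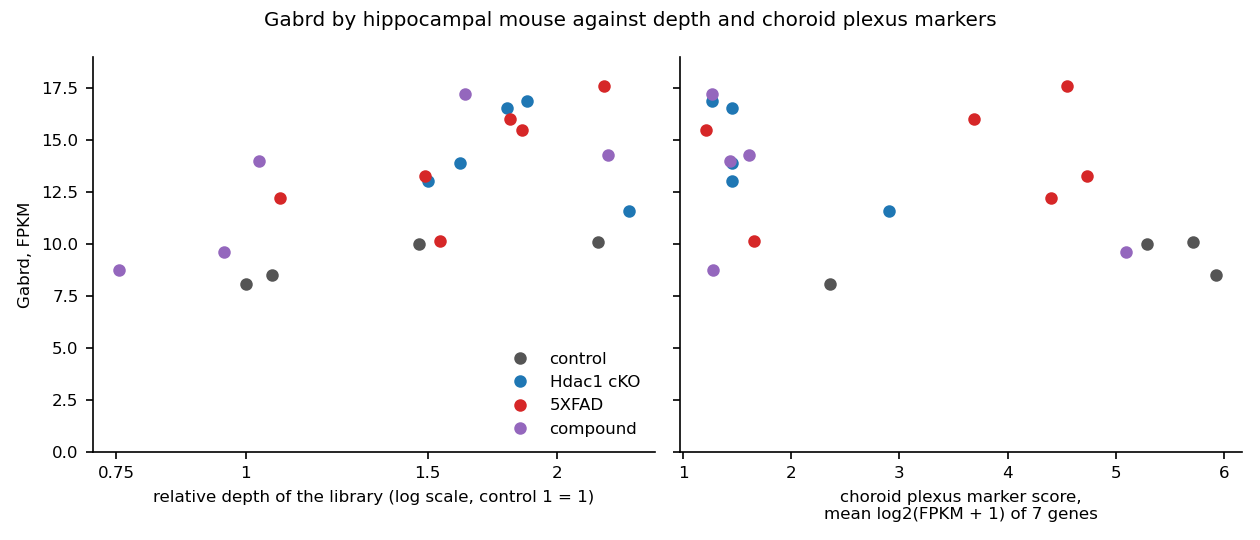
Gabrd in FPKM (y axes, from 0) for each hippocampal mouse, coloured by group, against the relative depth of its library (left, log scale) and its choroid plexus marker score (right). Compound 1 and 3, the lowest compound mice in Gabrd at 9.6 and 8.74 FPKM, also have the lowest depths of the 20, 0.953 and 0.754.

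Averaged over both backgrounds, Hdac1 loss went with differences from -0.02 (Gabra4) to 0.22 (Gabrd, 95% interval -0.03 to 0.46) among the members. No member was called or had an unadjusted p under 0.05 in limma, against 1.33% of genes called, 9.38% with an unadjusted p under 0.05 and 0.0278% with an adjusted p under 0.05. Averaged over both Hdac1 genotypes, 5XFAD went with a lower Gabra5, at -0.25 (SE 0.10, 95% interval -0.46 to -0.05, unadjusted p = 0.017 and adjusted p = 0.267 in limma), which at 1.19-fold was not called. Mice with and without 5XFAD overlapped, since compound 1, 2 and 3 reached 55 to 60.2 FPKM and the lowest control mouse stood at 47 FPKM. Shares of all genes here were 2.22% called and 2.2% with an adjusted p under 0.05, with no member among them, and 11.9% with an unadjusted p under 0.05, against 1 of 7 members.

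In GFAP+ nuclei the balance of the members was different. Gabrb1 stood at 198, 197 and 201 FPKM in control and 207, 195, 263 and 268 FPKM in Hdac1 cKO nuclei, and it made up 86.4% ± 2.75 (SD, n = 7) of the summed FPKM of the 7 members, compared with 25.2% ± 2.92 (SD, n = 20) in the hippocampus. Among all genes it lay between the 98.8th and 99.3rd percentile of its library, and in the hippocampus between the 92.4th and 94.3rd. Gabra2 followed at 17.1 ± 5.64 FPKM, then Gabra4 (6.49 ± 1.98), Gabrb2 (4.84 ± 0.576), Gabrd (3.67 ± 0.695), Gabra5 (1.41 ± 1.26) and Gabra3 (0.716 ± 0.338; SD, n = 7 each). The ranges of neighbours overlapped from Gabra2 downwards, and only Gabrb1 stood clear. Thus Gabra4 and Gabrb1, whose sequences are printed above and which neighbour each other on chromosome 5, differed by 219 against 6.49 FPKM in nuclei and by 57.1 against 17.5 FPKM in the hippocampus.

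**Figure D4:**
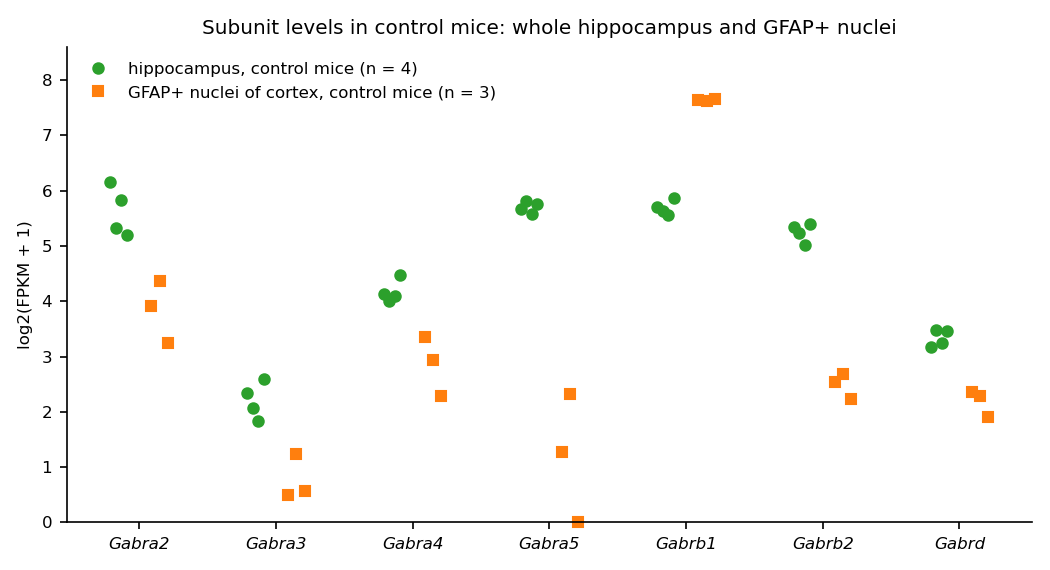
log2(FPKM + 1) of each subunit (y axis) in control mice, with circles for 4 hippocampi and squares for 3 samples of GFAP+ nuclei. Gabrb1 is the only subunit above its hippocampal level in the nuclei, and Gabra5 shows the widest gap.

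Set beside control hippocampus, control nuclei had 3.91 times the mean FPKM of Gabrb1. The other 6 members were lower in the nuclei: Gabra5 by 28.4 times, Gabrb2 by 8.02, Gabra3 by 4.93, Gabra2 by 3.58, Gabra4 by 2.61 and Gabrd by 2.55 times, and for none of the 7 did the mice of the sets overlap. The Gabra5 ratio rests on nuclei libraries at 1.43, 4 and 0 FPKM. With 1 nuclei library left out it ranged from 18.9 to 71.8, the highest without control 3. That of Gabra3 ranged from 4.02 to 8.34, the highest without the same library. These ratios were not tested, since region, RNA source and library method differ between the sets and cannot be told apart from cell type. The nuclei were stained for GFAP and for the neuronal protein NeuN, and whether NeuN+ nuclei were gated out is not given in the sources used here. The sort was checked by markers: summed astrocyte markers reached 1968 to 2560 FPKM in the nuclei against 750 to 1114 FPKM in the hippocampus, and summed neuron markers were 192 to 295 against 1638 to 2069 FPKM. All 6 neuron markers were still detected, and oligodendrocyte markers summed to 450 to 1223 FPKM, so markers of other cells were present in the nuclei samples. The source of these transcripts was not tested, nor was the share of the low subunits that stems from other cells.

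Hdac1 loss gave no call among the members in GFAP+ nuclei, where 2.58% of the 15070 genes tested were called, 4.7% had an unadjusted p under 0.05 (0 members in limma), 0.0133% had an adjusted p under 0.05 and 5.72% had groups without overlap. Gabrb1 differed by 0.22 (95% interval -0.13 to 0.56), with 3 of the Hdac1 cKO mice above and 1 below all control mice. Gabra2 was at 14, 19.6 and 8.45 FPKM in control and 14.3, 18.1, 26.4 and 19.2 FPKM in Hdac1 cKO nuclei, a log2 difference of 0.49 (95% interval -0.12 to 1.09, unadjusted p = 0.104, adjusted p = 0.984 in limma). Without control 3 it was 0.75 and called, and over all settings it ranged from 0.14 to 0.75. Gabrd was at 4.14, 3.89 and 2.76 FPKM in control and 3.35, 4.24, 4.5 and 2.85 FPKM in Hdac1 cKO nuclei, a difference of 0.04 (95% interval -0.47 to 0.55). That interval does not reach the 0.59 seen in the hippocampus, but the difference between the tissues was not tested. Hdac1 itself differed by -0.70 in these nuclei (adjusted p = 0.984 in limma), with groups that overlapped. Gabra5 was listed at 0 in control 4 and at 4 FPKM in control 3, and its interval ran from -1.17 to 0.88. With 3 and 4 mice, the smallest possible exact permutation p was 0.0286.

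**Figure D5:**
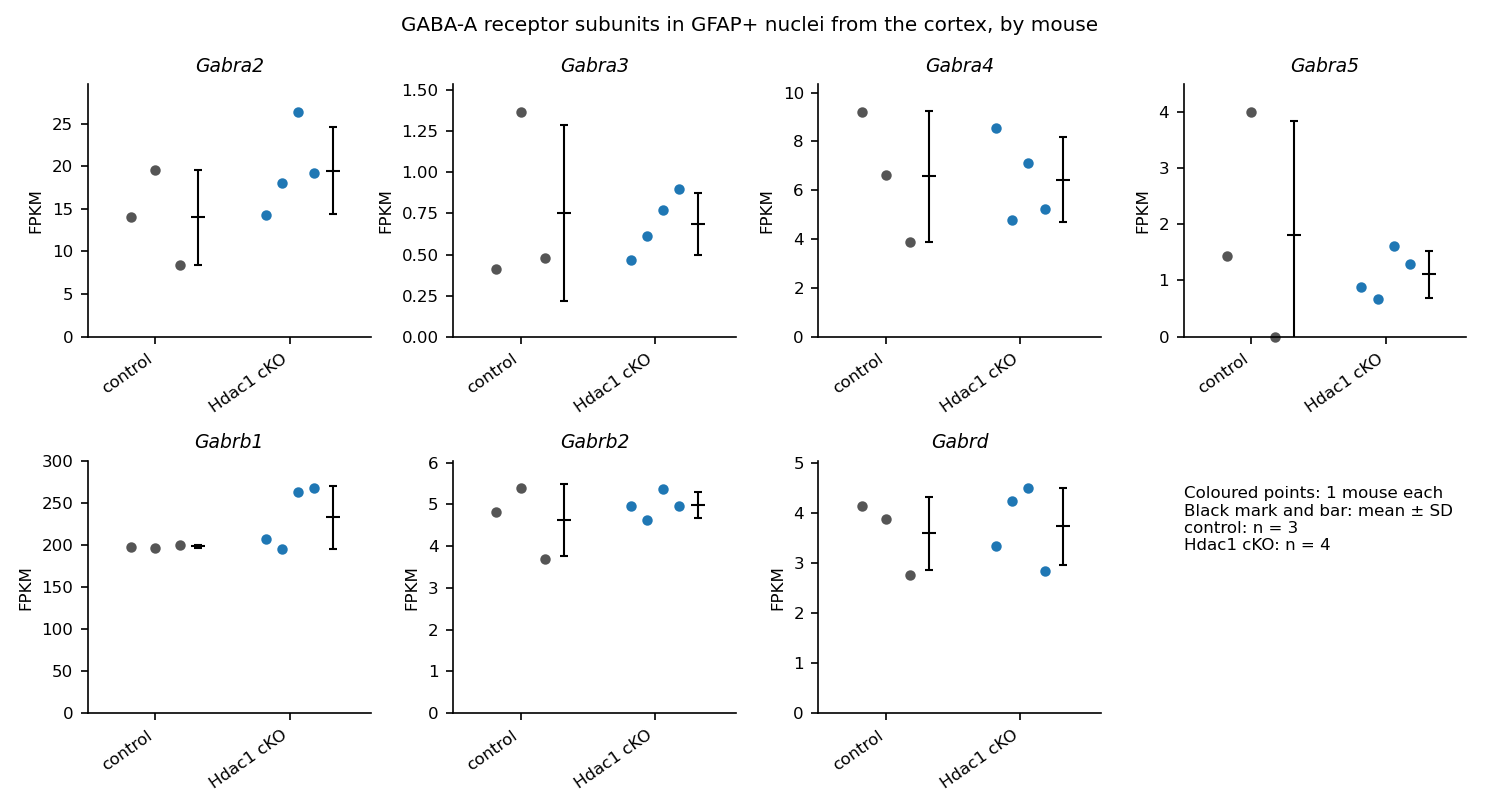
FPKM of each subunit (y axis, from 0) in GFAP+ nuclei of each mouse, by genotype (x axis), with the mean ± SD in black. The genotypes overlap for all 7 subunits.

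The other genes of the GABA system were counted next. Of the 12 other subunits 6 were tested in Hdac1 cKO against control mice, with none called and a median difference of 0.10. In 5XFAD mice 1 of 6 was called, the rho subunit Gabrr2, at -0.66 on the log2 scale (adjusted p = 0.447 in limma), with 0 to 0.617 FPKM against 0.179 to 2.85 FPKM in control mice. It passed the filter through the control group, control 1 above all, and with the choroid plexus score as a covariate its difference was -1.05 (SE 0.24). Of 29 genes for GABA synthesis, uptake, receptor anchoring, GABA-B receptors and chloride transport, all were tested in Hdac1 cKO against control mice and 2 were called, both lower (median difference -0.02), beside 3.36% of all genes in that comparison and 2.95% in 5XFAD against control mice. Slc12a2, the chloride importer NKCC1, fell by 0.88 on the log2 scale (unadjusted p = 0.00151 and adjusted p = 0.151 in limma), from 10.5, 22.8, 25.5 and 18.1 FPKM to 8.14 to 11.7 FPKM. With the choroid plexus score as a covariate its difference was -0.09 (SE 0.26), in mice whose score largely followed genotype. Control 1, the control mouse with the lowest Ttr (576 FPKM), was the lowest control mouse in Slc12a2. Hdac1 cKO 5, with more Ttr (1608 FPKM), was lower still at 9.29 FPKM. The part of choroid plexus tissue in Slc12a2 was not tested beyond that fit. Slc6a13, the GABA transporter GAT2, averaged 1.31 FPKM in control, 0.339 in Hdac1 cKO, 1.73 in 5XFAD and 0.441 in compound mice. It thus passed the filter of 0.5 FPKM only through the groups where it was high, so that its calls had to point downwards. Its log2 difference was -0.71 in Hdac1 cKO against control mice (adjusted p = 0.276 in limma), -0.63 in compound against control mice, -0.81 in compound against 5XFAD mice and -0.76 for Hdac1 loss averaged over both backgrounds. With the choroid plexus score as a covariate these 4 differences were, in the same order, -1.16 (SE 0.42), -0.85 (SE 0.38), -0.61 (SE 0.32) and -0.61 (SE 0.28), and the third, compound against 5XFAD mice, was no longer called. Slc6a13 was at most 3.49 FPKM in any hippocampal mouse. The remaining comparisons gave no call among the 29 genes, and Dbi, a ligand of the benzodiazepine site, had an adjusted p of 0.0412 in limma in compound against Hdac1 cKO mice at 1.45-fold higher.

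For each member the 3 genes with the most similar levels over the 20 hippocampal mice were sought among the 12995 genes that averaged 1 FPKM or more. The highest Pearson r values were 0.81 for Gabra4 with Ddx26b and 0.81 for Gabra5 with Bloc1s2, which were 0.83 and 0.76 once group means were removed. Gabra5 was followed by Uchl3 (0.78) and Pls3 (0.77), and Gabra4 by Dck (0.73) and Zfpm2 (0.72). Gabrb2 was closest to Usp32 (0.79), C130071C03Rik (0.77) and Il1rapl2 (0.73). Gabrd was closest to Qars (0.75), 1110054M08Rik (0.73) and Dnm1 (0.73). For Gabra3 the r was 0.71 with Nlk and 0.70 with Dcaf10. Gabrb1 was closest to Alox5ap (0.72), Rap1gds1 (0.72) and Ubl4 (0.69), and Gabra2 to Tigd2 (0.69), Tmem132b (0.69) and 1700034H15Rik (0.68). Among the members themselves the highest r was that of Gabra3 with Gabrb2, 0.61, and 0.67 without group means. Gabra4 and Gabrd, which partner in receptors, had an r of 0.31. Gabra4 had an r of 0.63 with the thalamus marker score, and was highest in 5XFAD 6 (22.8 FPKM) and control 4 (21.2 FPKM), the mice with the most thalamus RNA by that score. These values describe 20 libraries that share groups and depth, and they are not tests.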

How the data were processed

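Each file deposited by the authors lists 1 FPKM value per gene for 1 mouse. For hippocampal libraries, made by 3′ Digital Gene Expression, the authors aligned reads with Tophat2 and derived FPKM with Cufflinks 2.0.0 from the UCSC annotation of mm9. For GFAP+ nuclei, prepared with SMART-Seq v4, the aligner is not given in the sources used here. Of 34 samples, 27 had a file; 6 ChIP-seq samples and control 2 of the sorted nuclei are not used here. Fragment counts are not in these tables, so relative depth was estimated from ratios of FPKM between each library and control 1 of its set. The most frequent ratio was taken over genes detected in both at under 1 FPKM, as if each held 1 fragment in both. No counting interval was computed.

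Genes that averaged 0.5 FPKM or more were tested as log2(FPKM + 1) with limma 3.58.1 (trend and robust) in R 4.3.3, only the groups compared entering a fit, except that averages and the interaction used all 20 hippocampal mice. Single members were also compared by two-sided exact permutation over mice. Fits were tested on simulated data. The members and gene lists were chosen with earlier results of these data known. Named were all 7 members, list genes called (up to 6 per comparison) and the 3 nearest genes per member, with Hdac1 and Thy1 as label checks, and 1 nearest gene of Gabra3 is not reported here. A marker score is the mean log2(FPKM + 1) of a list. Nothing beyond the labels says how mice were related, and p-values measure the spread between these mice. Alternatives covered the pseudocount (0.1), the filter (none or 1 FPKM), quantile and median scaling, plain limma, other call rules, a joint fit, a replicate block and each mouse left out. Covariates for depth, choroid plexus and thalamus markers, and leaving out control 4 and 5XFAD 6, were chosen after seeing the data. Python 3.11.15 was used for other steps.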

Additional observations from a re-analysis of the deposited data

Results flagged for a closer look

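The effect of Hdac1 loss on Gabrd differed with the 5XFAD background by -0.75 on the log2 scale, the only 1 of 7 interaction terms with an unadjusted p under 0.05 in limma, as had 8.97% of all genes for this term. With depth as a covariate it was -0.44 and no longer called. Among 35 combinations of a member and a group of 4 to 6 mice, 2 mice stood apart from the rest of their group by Dixon's test, which chance does for about 1 in 20 groups. Gabra4 was 19.8 FPKM in compound 2 against 16 to 16.8 FPKM in the other 4 compound mice. Gabrb1 was 47.6 FPKM in 5XFAD 1 against 61.2 to 67 FPKM in the other 5 5XFAD mice, and without that mouse the difference from control was 0.33 on the log2 scale.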

How the results depend on the processing

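Direction was read from log2 values rounded to 2 decimals, and a value of 0.00, such as Gabrb1 and Gabrb2 in compound against Hdac1 cKO mice, was given no direction that could turn. On that basis, of 1511 values under other settings, 1425 kept their direction and their side of the call, and none of the 72 whose sign turned belonged to a value called in the first place. Among these, no value exceeded 0.19 in size on the log2 scale before the change, and none exceeded 0.44 after it. The number of members called in Hdac1 cKO against control mice went from 1 to 0 with an adjusted p or with depth as a covariate, and ranged from 0 to 1 with single mice left out. In 5XFAD against control mice it went from 0 to 2 with p alone, to 1 with a pseudocount of 0.1 and to 1 with the choroid plexus score as a covariate, and from 0 to 1 with single mice left out. Over all genes tested there, p alone called 10.7%. With p alone it went from 0 to 1 in compound against control mice, in compound against 5XFAD mice and for 5XFAD averaged, where p alone called 10.5%, 6.61% and 11.9% of all genes. With depth it went from 0 to 1 in compound against Hdac1 cKO mice. The interaction went from 1 to 0 with an adjusted p or with depth. In nuclei the count ranged from 0 to 1 with single mice left out. The cause was not tested. Gabrd in Hdac1 cKO against control mice had log2 differences of 0.53 to 0.66 and adjusted p of 0.0863 to 0.542 over all settings in limma.

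Signs turned as follows. With the choroid plexus score: Gabra2 -0.26 and Gabrb2 -0.10 in Hdac1 cKO against control, Gabra4 -0.04 and Gabra5 0.06 in compound against control, and Gabra4 0.03 and Gabrb1 -0.02 for Hdac1 loss averaged. With depth: Gabra5 -0.11 and Gabrd 0.05 in compound against 5XFAD, Gabra2 0.12, Gabra3 -0.01 and Gabrd 0.02 in compound against Hdac1 cKO, and Gabra4 -0.29, Gabrb2 -0.04 and Gabrd -0.07 in nuclei. With a pseudocount of 0.1, nuclei gave Gabra3 0.02 and Gabra5 0.44. With the thalamus score: Gabra2 -0.08 in Hdac1 cKO against control, Gabra4 0.01 in compound against 5XFAD, 0.03 in compound against Hdac1 cKO and 0.06 for Hdac1 loss averaged. Without control 4 and 5XFAD 6 the first, second and last of these were -0.08, 0.01 and 0.06.

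With single mice left out, values ranged across 0 as follows. Hdac1 cKO against control had Gabra2 at -0.08 to 0.25, Gabra4 at -0.04 to 0.12 and Gabrb2 at -0.03 to 0.09. Compound against control had Gabra2 at -0.16 to 0.16, Gabra4 at -0.05 to 0.11 and Gabrb2 at -0.03 to 0.10. Compound against 5XFAD had Gabra4 at -0.12 to 0.01 and Gabra5 at -0.01 to 0.19. Compound against Hdac1 cKO had Gabra2 at -0.22 to 0.02, Gabra3 at -0.04 to 0.07, Gabra4 at -0.09 to 0.05, Gabrb1 at -0.05 to 0.04 and Gabrb2 at -0.04 to 0.06. Hdac1 loss averaged had Gabra4 at -0.05 to 0.03, 5XFAD averaged had it at -0.01 to 0.08, and the interaction had Gabra5 at -0.20 to 0.01. Nuclei had Gabra3 at -0.16 to 0.22, Gabra4 at -0.28 to 0.26, Gabra5 at -0.74 to 0.42, Gabrb2 at -0.03 to 0.19 and Gabrd at -0.10 to 0.14.

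Mice of different groups share only a replicate number: over 30 pairs of same-numbered mice, deviations from group means had r of -0.11 to 0.09, and 6 mice were closest to their own number. With the replicate number as a block, Gabrd differed by 0.66 in Hdac1 cKO and 0.44 in 5XFAD against control, with an interaction of -0.65, and the number of members called was the same in each comparison. Signs turned with the block for Gabra2 in Hdac1 cKO against control (-0.03), Gabra4 in compound against 5XFAD (0.01), for Hdac1 loss averaged (0.01) and 5XFAD averaged (-0.01), and Gabrd in nuclei (-0.01).

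The small groups limit the precision. Fragment numbers are unknown, 3′ libraries make levels between genes uncertain, and no hippocampal group carried Nestin-Cre without floxed Hdac1.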
